A study of Homo sapiens with 12 samples.

Results

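The comparison asked where 2 perturbations of one proposed pathway gave different answers. It is the effect of PADI2 knockdown on poly(A) RNA, minus the effect of the R1810A form of RNA polymerase II (RNAP2). Both effects were taken from all 8 poly(A) libraries, out of 12 libraries in the series, in 1 joint fit, and the difference of effects is the siPADI2 minus siCtrl log2 fold change less the R1810A minus WT log2 fold change. The contrast follows from the design, and no measured value was used to choose it. The cells were T47D-MTVL, a line derived from the hormone-responsive breast cancer line T47D that carries a single-copy luciferase reporter under the MMTV promoter. They grew in medium without phenol red and with charcoal-treated serum, and no library was from cells treated with R5020, a progestin.

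The siPADI2 libraries came from cells transfected with an siRNA against PADI2, and the siCtrl libraries from cells transfected with a control siRNA. The R1810A libraries are those whose labels name an RNAP2 mutated at R1810, called R1810A in a sample description, and the WT libraries those of wild-type RNAP2. In both of these groups an HA-tagged RNAP2 that resists the RNAP2 inhibitor alpha-amanitin was expressed for 24 hours, and alpha-amanitin at 6 µg/ml was then given for 12 hours. Each group has 2 libraries. The toxin, the plasmid and the time course were therefore shared by R1810A and WT and absent from siPADI2 and siCtrl, so a difference of effects cannot be told apart from a difference between the siRNA and alpha-amanitin settings. The labels do not state whether 2 libraries of one group were grown apart. Every p-value therefore reflects the library-to-library spread alone, and that spread may be technical. In bulk RNA, fewer cells of one kind and less RNA per cell cannot be told apart.

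PADI2 belongs to the peptidylarginine deiminases, which turn protein arginine into citrulline. The largest RNAP2 subunit, encoded by POLR2A, ends in a long tail of repeats to which elongation and processing factors bind, and R1810 is an arginine of that tail reported as a substrate of PADI2. An alanine in its place cannot be citrullinated, so loss of the enzyme and loss of the site address the same modification from 2 sides. Genes that answer both perturbations alike are left aside here, and the genes described are those that answered in opposite directions or by unequal amounts.

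The PADI2 transcript itself (chr1:17393256-17445948, hg19) had 1.84 and 1.88 CPM (counts scaled to library size) in siPADI2 libraries and 23.9 and 22.5 CPM in siCtrl libraries. It had 3.22 and 2.34 CPM in the libraries labelled R1810A, where no siRNA against it is named, and 47.6 and 50.5 CPM in WT libraries. PADI2 was thus low in R1810A libraries too, with a log2 fold change of -3.63 ± 0.13 (SE) for siPADI2 over siCtrl and -4.14 ± 0.12 for R1810A over WT. The difference of effects for PADI2 was 0.51 ± 0.17, with an adjusted p of 0.043 by edgeR's quasi-likelihood test with Benjamini-Hochberg adjustment, the test behind every adjusted p given here for the joint fit. Leaving out a library gave an adjusted p above 0.05 in 7 of 8 cases. POLR2A, which the gene counts cannot split into endogenous and transfected copies, had 314 and 307 CPM in siPADI2 libraries against 487 and 399.6 in siCtrl libraries, and 371 and 362 CPM in R1810A libraries against 501 and 527 in WT libraries. The 2 effects on POLR2A were -0.51 ± 0.08 and -0.49 ± 0.08, and their difference had an adjusted p of 0.9. The counts do not show the mutation, so the R1810A label was not checked by them.

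The poly(A) libraries held 44318629 to 132764704 counted fragments, and the first siCtrl library was the shallowest. All 10 luminal epithelial markers exceeded 1 CPM in every library. They summed to 6940 and 7320 CPM in siPADI2 libraries against 10400 and 11500 in siCtrl libraries, and to 7210 and 8070 CPM in R1810A libraries against 10600 and 11300 in WT libraries, so both perturbed groups lay below their controls. These sums were scaled by library totals without TMM factors. The 6 immune markers summed to 0.581 to 1.36 CPM, and the endothelial markers to 0.0979 to 0.529 CPM over the 8 libraries. Fibroblast markers summed to 48.2 to 77.1 CPM, most of it COL1A1, and basal markers to 5.99 to 12.8 CPM.

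Of 19884 genes tested, 5196 (26.1%) had a difference of effects at an adjusted p below 0.05. It was positive (siPADI2 effect above the R1810A effect) for 2343 genes (11.8%) and negative for 2853 (14.3%). For comparison, 53.3% of genes were called for siPADI2 over siCtrl and 43.4% for R1810A over WT. Both effects were called for 6334 genes, with the same sign in 5810 and opposite signs in 524, and the difference of effects was called in all 524. That last count was nearly fixed by the selection, because 2 called effects of opposite sign add in size in their difference. The siPADI2 effects were the wider of the 2, with a standard deviation over all genes of 0.939 log2 units against 0.725 for R1810A effects. The split between positive and negative calls depends on how libraries are scaled. With total counts in place of TMM factors the median difference over all genes moved by 0.144 log2 units, to 3870 positive and 1822 negative calls, so 68% of calls were positive instead of 45.1%. List medians are therefore also given under total counts.

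The genes with a called difference fell into 7 classes. In 327 genes (1.64% of those tested) siPADI2 lowered and R1810A raised the transcript, and in 197 (0.991%) siPADI2 raised and R1810A lowered it. Which of these was larger depended on the processing, with 213 and 283 genes under total counts and 217 and 286 with no filter on low counts. Both effects were positive but unequal in 816 genes, and the siPADI2 effect was the larger in 629 of these. Both were negative but unequal in 863 genes, with the siPADI2 effect larger in size in 772. Under total counts 1231 genes were higher in both and 617 lower in both. The siPADI2 effect alone was called in 2082 genes, the R1810A effect alone in 822, and neither on its own in 89. Genes that rose unequally in both were long, with a median span from start to end of 57040 bases against 22210 for all genes tested. Medians for the other classes lay between 22860 and 40620 bases.

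**Figure D1:**
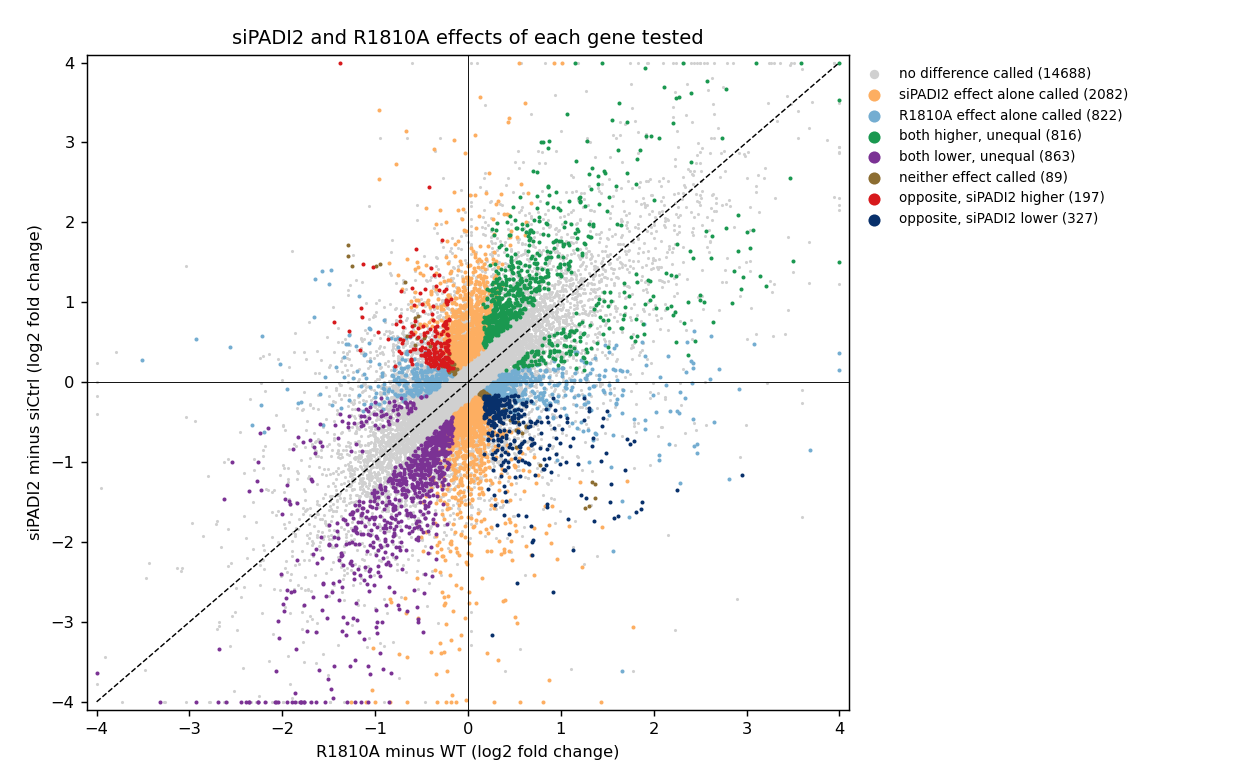
Each point is a gene, with the R1810A minus WT log2 fold change on the horizontal axis and the siPADI2 minus siCtrl log2 fold change on the vertical axis, coloured by class of called difference (number of genes in brackets). The dashed line marks equal effects. The 136 genes beyond 4 log2 units on either axis are drawn at the edge. The 197 and 327 genes of opposite sign lie in the upper left and lower right quadrants.

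Genes that siPADI2 lowered and R1810A raised were most often highest in siCtrl (239 of 327) and lowest in WT (228 of 327). CALCR (chr7:93053799-93204042), the receptor of the hormone calcitonin, had 3.56 and 3.93 CPM in siPADI2 libraries against 11.2 and 11.9 in siCtrl libraries, and 3.54 and 3.34 CPM in R1810A libraries against 1.03 and 0.936 in WT libraries. The siCtrl libraries were the highest of the 8 and the WT libraries the lowest, with no overlap within either pair of groups. The siPADI2 effect was -1.63 ± 0.11, the R1810A effect 1.80 ± 0.12 and their difference -3.43 ± 0.17 (adjusted p = 1.5e-08).

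CCL28 (chr5:43376747-43412493), a chemokine of mucosal epithelia, had 40.5 and 39.8 CPM in siPADI2 libraries against 77.4 and 84.9 in siCtrl libraries, and 39.1 and 37.0 CPM in R1810A libraries against 19.1 and 19.3 in WT libraries. The siCtrl libraries were highest, the WT libraries lowest and the other 4 lay between, close together (difference -2.01 ± 0.10, adjusted p = 1.5e-08). SERHL2 (chr22:42949623-42970388), a serine hydrolase-like gene, was ordered otherwise. It had 10.8 and 8.28 CPM in siPADI2 libraries against 17.5 and 18 in siCtrl libraries, and 24.0 and 23.7 CPM in R1810A libraries against 12.3 and 12.3 in WT libraries, so R1810A was highest and siPADI2 lowest (difference -1.85 ± 0.15, adjusted p = 1.4e-06).

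The reverse class, raised by siPADI2 and lowered by R1810A, was led by CDC42EP3 (chr2:37869032-37965611), an effector of the GTPase CDC42 that acts on the actin cytoskeleton. It had 23.9 and 24.6 CPM in siPADI2 libraries against 13.8 and 15.0 in siCtrl libraries, and 37.6 and 38.3 CPM in R1810A libraries against 102 and 105 in WT libraries. The WT libraries stood well above all others and siCtrl was lowest (siPADI2 effect 0.75 ± 0.07, R1810A effect -1.45 ± 0.07, difference 2.2 ± 0.10, adjusted p = 6.8e-09). AMOTL1 (chr11:94439597-94609918), a junction protein that binds YAP, had 17.0 and 15.2 CPM in siPADI2 libraries against 8.0 and 6.75 in siCtrl libraries, and 18.6 and 19.9 CPM in R1810A libraries against 29.9 and 33.4 in WT libraries. UPK3B (chr7:76139745-76648340), a uroplakin, had 61.9 and 53.6 CPM in siPADI2 libraries against 35.5 and 34.3 in siCtrl libraries, and 117 and 133 CPM in R1810A libraries against 204 and 223 in WT libraries. In both genes the order was siCtrl, siPADI2, R1810A and WT from low to high, and no pair of groups overlapped.

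CBS (chr21:44473301-44497053), which makes cystathionine in the transsulfuration pathway, kept a different order. It had 34.8 and 33.1 CPM in siPADI2 libraries against 22.4 and 19.8 in siCtrl libraries, and 13.7 and 14.2 CPM in R1810A libraries against 23.4 and 22.2 in WT libraries, so the 2 perturbed groups were the extremes (difference 1.4 ± 0.11, adjusted p = 1e-06). PURPL (chr5:27472399-27496508), a long noncoding RNA, had 3.39 and 4.44 CPM in siPADI2 libraries against 2.39 and 2.07 in siCtrl libraries, and 4.39 and 3.22 CPM in R1810A libraries against 7.42 and 5.24 in WT libraries. Its difference of 1.57 ± 0.31 (adjusted p = 0.0062) had an adjusted p of 0.0576 without the second siCtrl library.

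**Figure D2:**
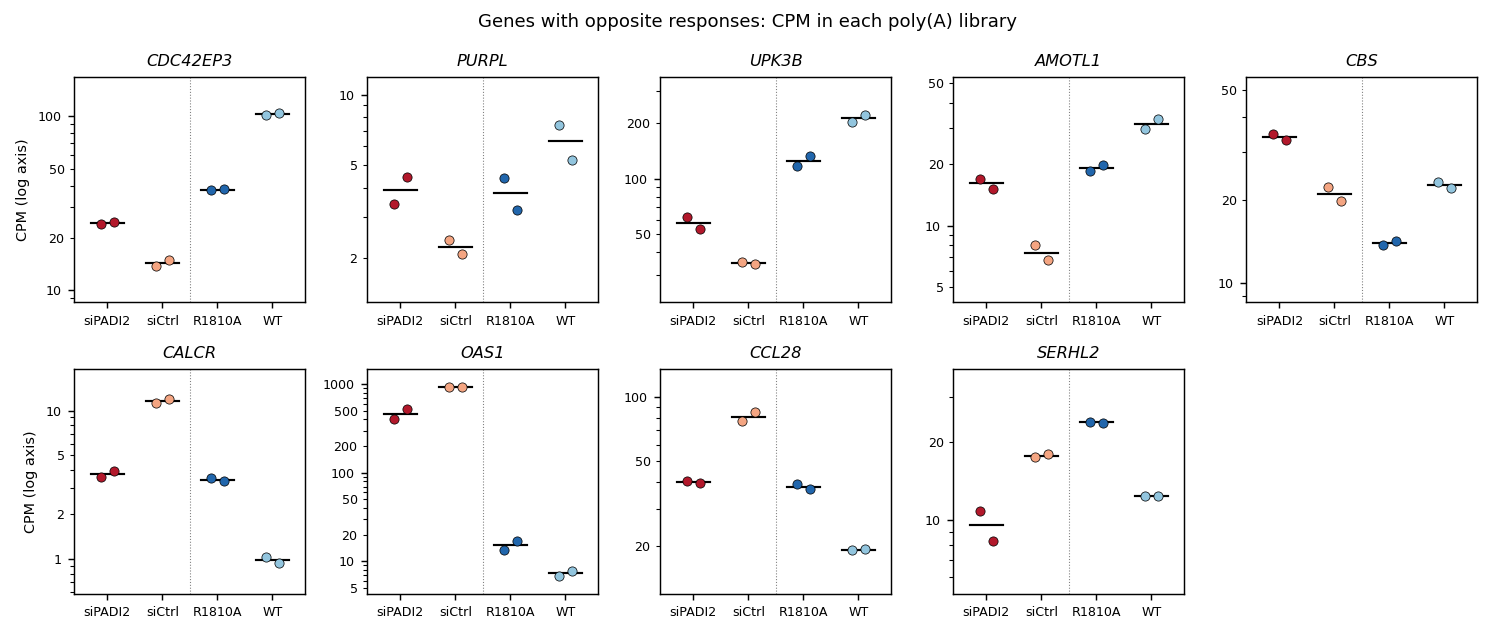
CPM on a log axis in each of the 8 poly(A) libraries for 9 genes named from the classes of opposite response (points, single libraries; bars, group means). In the upper row siPADI2 lies above siCtrl and R1810A below WT, and in the lower row the reverse. For CALCR and CCL28 the siPADI2 and R1810A points lie at similar levels, between siCtrl and WT.

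The same order was counted over the whole classes, where membership fixes siPADI2 against siCtrl and R1810A against WT but not the order of the 4 groups. Among the 327 genes lowered by siPADI2 and raised by R1810A, R1810A instead had the highest group mean in 88 and siPADI2 the lowest in 99. Among the 197 genes of the reverse class WT was highest in 151 and siCtrl lowest in 156. ENTPD3 (chr3:40428647-40470110), an ectonucleotidase of the class lowered by siPADI2 and raised by R1810A, had 7.69 and 7.81 CPM in siPADI2 libraries against 68.5 and 71.0 in siCtrl libraries, and 12.2 and 12.6 CPM in R1810A libraries against 10.1 and 10.6 in WT libraries (difference -3.43 ± 0.10, adjusted p = 2.3e-10). Its siCtrl libraries stood far above the other 6, and its R1810A effect of 0.26 ± 0.07 was small.

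Interferon-stimulated genes, the antiviral genes that interferon signalling switches on, had a lower siPADI2 than R1810A effect throughout the list. All 40 members tested had a negative difference, and it was called in 26, with none called positive, beside 14.3% and 11.8% of all genes. The median difference was -0.90 (-0.75 under total counts), against -0.00141 over all genes tested. Tested against a fold of 1.5, 9 members were called negative. The siPADI2 effect was negative in 27 and positive in 1 by its own test, beside 25.9% lower and 27.4% higher of all genes. The R1810A effect was positive in 18 and negative in 5, beside 23.3% higher and 20.1% lower. Both criteria were met by 10 genes, which are of opposite response, from the effector proteins (OAS1, MX1, MX2, ISG15, ISG20, IFI27) to GBP2, IFIH1, PARP9 and SAMD9L.

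OAS1 (chr12:113344582-113369990), which makes the 2-5A messenger that activates RNase L, had 404 and 522 CPM in siPADI2 libraries against 929 and 922 in siCtrl libraries, and 13.4 and 16.9 CPM in R1810A libraries against 6.89 and 7.72 in WT libraries. Its siPADI2 effect was -1.0 ± 0.14 and its R1810A effect 1.05 ± 0.16 (difference -2.05 ± 0.21, adjusted p = 0.00032). Neither pair of groups overlapped, and all 4 siRNA libraries were far above all 4 RNAP2 libraries. The summed level of the list showed the same gap, with 13620 and 15560 CPM in siPADI2 libraries against 21580 and 21230 in siCtrl libraries, and 1297 and 1390 CPM in R1810A libraries against 1107 and 1166 in WT libraries. The 2 effects were thus measured from very different starting levels, and the part of that gap in the result was not tested.

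MX2 (chr21:42733870-42781317), a dynamin-like GTPase that restricts retroviruses, had 8.57 and 11 CPM in siPADI2 libraries against 43.7 and 43.8 in siCtrl libraries, and 4.14 and 4.47 CPM in R1810A libraries against 2.51 and 2.81 in WT libraries. It had the most negative difference of the list, -2.85 ± 0.16 (adjusted p = 8.5e-08). ISG20 (chr15:89179384-89199714), an RNA exonuclease, had 15.7 and 17.1 CPM in siPADI2 libraries against 24.4 and 23.5 in siCtrl libraries, and 4.41 and 5.22 CPM in R1810A libraries against 1.69 and 1.86 in WT libraries (difference -1.98 ± 0.15). IFIT1 (chr10:91152303-91163745), which binds foreign 5′ RNA ends, had 903 and 1221 CPM in siPADI2 libraries against 1299 and 1468 in siCtrl libraries, and 29.9 and 35.0 CPM in R1810A libraries against 9.43 and 11.2 in WT libraries. For IFIT1 the R1810A effect of 1.65 ± 0.17 was called and the siPADI2 effect of -0.38 ± 0.16 was not (adjusted p = 0.087), and the difference was -2.04 ± 0.24 (adjusted p = 0.00089). ISG15, a ubiquitin-like modifier, had a difference of -1.46 ± 0.27 (adjusted p = 0.011), whose adjusted p was above 0.05 in 3 of the 8 fits that left out a library, with 0.0601 as the highest of those 3.

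Promoters were searched for letters that interferon-activated factors are known to bind. The interferon-stimulated response element was searched as 2 copies of TTTC with any 2 bases between them, on either strand (GAAA on the other), in the 250 bases before each RefSeq start site on GRCh38.p14. It was found for 21 of the 30 list genes with a promoter in the RefSeq table, 70% of them, against 3.31% of 12702 tested genes with one and 3.02% of all 35116 promoters. A match is a description of the letters and not a binding site measured in these cells. Promoters of 3 genes described here are shown as 90-base stretches with the matches in capitals, IFIT1 (chr10:89392480-89392569, plus strand), ISG20 (chr15:88638907-88638996, plus strand) and IFI27 (chr14:94110601-94110690, plus strand).
IFIT1: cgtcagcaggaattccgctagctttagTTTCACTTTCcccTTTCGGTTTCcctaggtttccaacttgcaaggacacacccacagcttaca
ISG20: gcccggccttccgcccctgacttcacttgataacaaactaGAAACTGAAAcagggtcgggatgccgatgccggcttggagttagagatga
IFI27: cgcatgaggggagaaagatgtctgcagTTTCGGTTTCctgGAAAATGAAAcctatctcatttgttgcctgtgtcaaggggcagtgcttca
IFI27, a mitochondrial interferon-induced protein whose stretch holds both orientations, had 598 and 601 CPM in siPADI2 libraries against 789.5 and 748 in siCtrl libraries, and 6.67 and 8.86 CPM in R1810A libraries against 2.75 and 2.76 in WT libraries. Its siPADI2 effect of -0.36 ± 0.10 was small beside its R1810A effect of 1.5 ± 0.12.

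Among 24 antigen presentation genes the difference was called positive in 5 and negative in 3, beside 11.8% and 14.3% of all genes (median 0.02, or 0.17 under total counts). MICB (chr6:31462658-31478901), a stress-induced ligand of natural killer cells, had 39.9 and 42.4 CPM in siPADI2 libraries against 122 and 118 in siCtrl libraries, and 33.3 and 34.2 CPM in R1810A libraries against 26.9 and 28.3 in WT libraries. Its response was opposite, with a difference of -1.83 ± 0.09 (adjusted p = 2e-08). Of 11 NF-kB targets tested, 2 were called negative (BIRC3 and NFKBIE) and none positive (median 0.04, or 0.19 under total counts).

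Cholesterol and fatty acid synthesis genes had the largest called share of the lists described here. The difference was called negative in 22 of 28 members (78.6%) and positive in 1, with a median of -0.88 (-0.73 under total counts), and 27 members had a negative value. Of all genes 14.3% were called negative and 11.8% positive. Against a fold of 1.5 the negative calls among members were 13. Knockdown lowered 22 and raised 2 members, beside 25.9% and 27.4% of all genes. R1810A raised 12 and lowered 7, beside 23.3% and 20.1% of all genes. The 7 genes of opposite response include steps of the sterol pathway, namely MVK, MVD and IDI1 in the mevalonate part, SQLE at the first oxygenation, and MSMO1 and HSD17B7 in the demethylation of lanosterol.

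MSMO1 (chr4:166248775-166264312) had 145 and 149.5 CPM in siPADI2 libraries against 269 and 318 in siCtrl libraries, and 114 and 111 CPM in R1810A libraries against 75.0 and 72.2 in WT libraries. The siCtrl libraries were the highest, the WT libraries the lowest, and neither pair overlapped (siPADI2 effect -1.0 ± 0.08, R1810A effect 0.62 ± 0.08, difference -1.61 ± 0.11, adjusted p = 2.3e-07). HSD17B7 (chr1:162760492-162782607) had 14 and 13.2 CPM in siPADI2 libraries against 28.6 and 29.8 in siCtrl libraries, and 12.2 and 11.2 CPM in R1810A libraries against 8.9 and 8.91 in WT libraries. IDI1, an isopentenyl diphosphate isomerase, had 371 and 366 CPM in siPADI2 libraries against 530.4 and 599 in siCtrl libraries, and 317 and 318 CPM in R1810A libraries against 222 and 215 in WT libraries. In all 3 genes siPADI2 fell and R1810A rose. SQLE, squalene epoxidase and a rate-limiting step, had a siPADI2 effect of -0.58 ± 0.06, an R1810A effect of 1.01 ± 0.06 and a difference of -1.59 ± 0.09 (adjusted p = 5.6e-08).

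Other members fell unequally, or in siPADI2 alone. ACLY (chr17:40023161-40086795), which makes cytosolic acetyl-CoA from citrate, had 183 and 169.7 CPM in siPADI2 libraries against 1614 and 1445 in siCtrl libraries, and 229.6 and 232 CPM in R1810A libraries against 729.7 and 802 in WT libraries. Both effects were large, -3.12 ± 0.09 and -1.73 ± 0.08, and their difference was -1.39 ± 0.11 (adjusted p = 1.1e-06). SCD, the stearoyl-CoA desaturase, had 893 and 805 CPM in siPADI2 libraries against 3081 and 2771 in siCtrl libraries, and 837 and 873 CPM in R1810A libraries against 1124 and 1201 in WT libraries. FDPS, farnesyl diphosphate synthase, had 142 and 133 CPM in siPADI2 libraries against 270.1 and 269 in siCtrl libraries, and 139 and 142 CPM in R1810A libraries against 131 and 134 in WT libraries, so siCtrl alone stood apart. PMVK, phosphomevalonate kinase, was the 1 positive call (difference 0.39 ± 0.12, adjusted p = 0.03), and its adjusted p was above 0.05 in 5 of the 8 fits that left out a library, with values up to 0.132.

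The CCAAT box, bound by NF-Y next to SREBP sites in many sterol genes, was searched in the same 250 bases as CCAAT on either strand (ATTGG on the other). It was present for 17 of 21 list genes with a promoter in the table (81%), against 40.6% of tested genes. The sterol regulatory element, searched as TCACNCCAC on either strand (GTGGNGTGA on the other), was found for 1 of the 21 (4.76%), against 1.2% of tested genes, and that spelling does not cover degenerate elements. Stretches of 90 bases are shown for 1 gene of the opposite response from the mevalonate part (IDI1) and 1 from the demethylation of lanosterol (MSMO1), and for 1 in which knockdown alone was called, with CCAAT and ATTGG in capitals: MSMO1 (chr4:165327579-165327668, plus strand), IDI1 (chr10:1048926-1049015, minus strand) and FDPS (chr1:155308773-155308862, plus strand).
MSMO1: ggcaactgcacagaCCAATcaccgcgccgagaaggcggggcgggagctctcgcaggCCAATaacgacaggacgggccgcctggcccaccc
IDI1: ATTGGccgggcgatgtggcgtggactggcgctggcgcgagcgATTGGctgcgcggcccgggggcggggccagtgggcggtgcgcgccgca
FDPS: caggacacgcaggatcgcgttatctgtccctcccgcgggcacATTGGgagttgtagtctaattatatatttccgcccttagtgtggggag

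Of the hypoxia and glycolysis genes with a called difference, 12 were called for the siPADI2 effect alone. The difference was called negative in 20 of 29 members and positive in 2, beside 14.3% and 11.8% of all genes. The median was -0.48 (-0.34 under total counts), and 7 were called negative against a fold of 1.5. Knockdown lowered 23 and raised 5 members, beside 25.9% and 27.4% of all genes. R1810A lowered 7 and raised 8, beside 20.1% and 23.3% of all genes. LDHA (chr11:18415935-18429972), lactate dehydrogenase A, had 374 and 404 CPM in siPADI2 libraries against 1230.0 and 1276 in siCtrl libraries, and 284 and 300.5 CPM in R1810A libraries against 299 and 317 in WT libraries. Only the siCtrl libraries were high, and the R1810A and WT libraries overlapped (siPADI2 effect -1.69 ± 0.07, R1810A effect -0.07 ± 0.07, difference -1.61 ± 0.10, adjusted p = 1.4e-07). ALDOC, an aldolase (chr17:26900133-26904282), had 46.0 and 50.5 CPM in siPADI2 libraries against 136 and 141 in siCtrl libraries, and 48.3 and 51.2 CPM in R1810A libraries against 48.8 and 52.6 in WT libraries, so again siCtrl alone was high.

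HK2 (chr2:75061108-75120486), the inducible hexokinase, was of opposite response with 31 and 34.7 CPM in siPADI2 libraries against 55.9 and 53.9 in siCtrl libraries, and 19.8 and 21.3 CPM in R1810A libraries against 13.8 and 15.2 in WT libraries. GPI, PDK1 and PFKFB4 shared that class. EGLN3 (chr14:34393437-34931980), a prolyl hydroxylase of HIF induced by hypoxia, fell in both but unequally, with 15.3 and 17.0 CPM in siPADI2 libraries against 118 and 131 in siCtrl libraries, and 49.4 and 52.6 CPM in R1810A libraries against 141 and 151 in WT libraries (difference -1.43 ± 0.11). GAPDH fell in both (effects -0.73 and -0.45) with no called difference (adjusted p = 0.081). The HIF targets ADM and NDRG1 also had none (adjusted p = 0.0789 and 0.445).

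**Figure D3:**
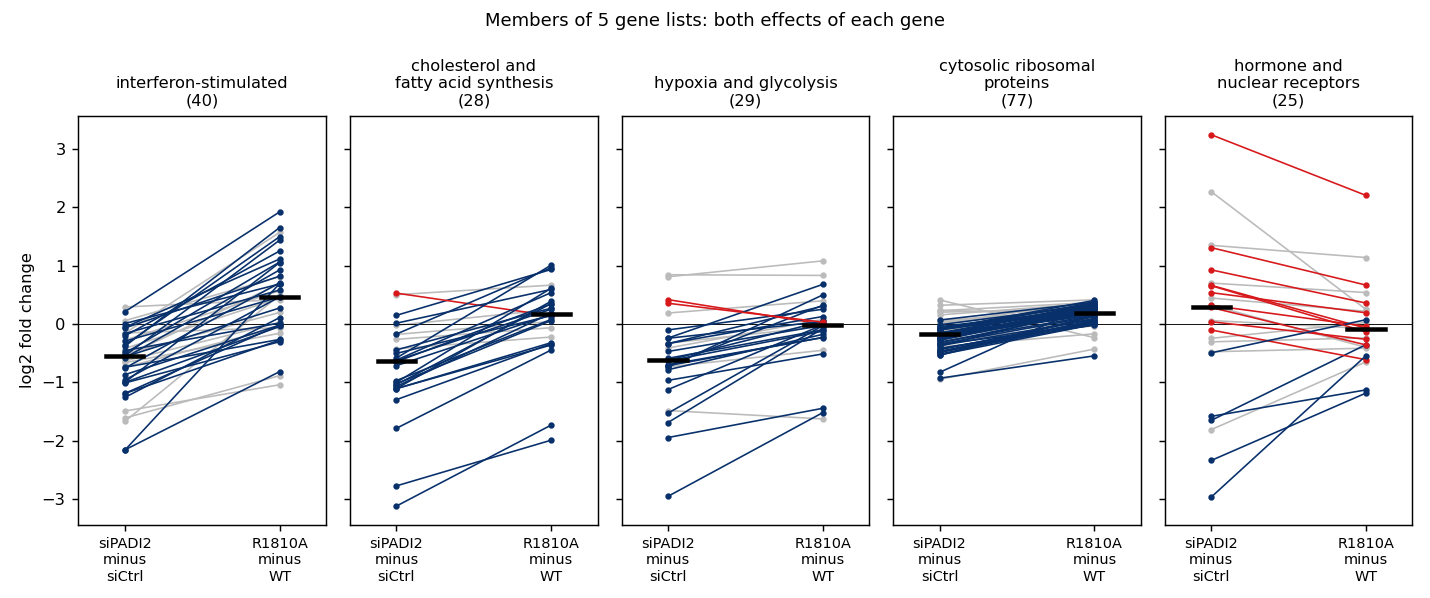
Each line joins the siPADI2 minus siCtrl (left) and R1810A minus WT (right) log2 fold change of 1 gene in 5 lists, with the number of genes tested in brackets. Dark blue lines have a called negative difference of effects, red lines a called positive one and grey lines none, and black bars are medians. Lines of the first 4 lists mostly rise from left to right, while the receptor list holds lines of both kinds.

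Ribosomal protein genes had small differences of 1 direction. The difference was negative in 75 of 77 cytosolic ribosomal protein genes, called in 46 (59.7%) and called positive in none, with a median of -0.37 (-0.22 under total counts). Over all genes it was called negative in 14.3% and positive in 11.8%. Knockdown lowered 36 and raised 3, beside 25.9% and 27.4% of all genes. R1810A raised 35 and lowered 2, beside 23.3% and 20.1% of all genes, and 12 were of opposite response. RPL14 (chr3:40498783-40503861) had 332 and 276 CPM in siPADI2 libraries against 551 and 527 in siCtrl libraries, and 309.5 and 317 CPM in R1810A libraries against 237 and 250.1 in WT libraries, with the most negative difference of the list (-1.19 ± 0.12, adjusted p = 5.9e-06). RPS3A (chr4:152020725-152025804) had 138 and 124 CPM in siPADI2 libraries against 168 and 171 in siCtrl libraries, and 249.5 and 232 CPM in R1810A libraries against 213 and 185 in WT libraries. These genes have many processed copies in the genome, so their counts are uncertain, and the count of 46 became 29 under total counts and also without the second siPADI2 or the second R1810A library, and 1 against a fold of 1.5.

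Nuclear genes of oxidative phosphorylation were called negative in 23 of 51 (45.1%) and positive in 2 (median -0.30, or -0.16 under total counts). For this and each other list in the paragraph, the shares over all genes were 14.3% negative and 11.8% positive. The count of 23 became 8 under total counts and 0 against a fold of 1.5. It was 12 without the second R1810A, 14 without the second siCtrl and 15 without the first WT library. COX7A2 (chr6:75947391-75960039), a subunit of complex IV, had 38.9 and 40.1 CPM in siPADI2 libraries against 84.8 and 95.9 in siCtrl libraries, and 65.2 and 58.9 CPM in R1810A libraries against 82.5 and 80.1 in WT libraries. Its fall was larger in siPADI2 (difference -0.81 ± 0.10, adjusted p = 6.9e-05). NDUFA4 (chr7:10971578-10979883), another complex IV subunit, fell in siPADI2 alone. Mitochondrial ribosomal proteins were called negative in 21 of 72 (29.2%) and positive in 1 (median -0.20, or -0.05 under total counts). The count of 21 became 7 under total counts, 9 with no filter and 0 against a fold of 1.5, and it was 7 without the second R1810A, 8 without the first WT and 10 without the second siPADI2 library. Proteasome subunits were called negative in 8 of 30 (26.7%, median -0.23, or -0.08 under total counts), which became 2 under total counts and 0 against the fold. That count was 3 without the second siPADI2, the first WT or the second R1810A library, 4 without the first R1810A, and 5 without the second siCtrl or the second WT library. Of 31 lysosomal genes 14 (45.2%) were called negative and 2 positive (median -0.26), or 5 and 6 under total counts (median -0.12). Negative calls were 5 without the second R1810A, 6 without the first WT and 7 without the second siPADI2 library, and 1 against the fold.

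Of 32 estrogen-induced genes the difference was called negative in 19 (59.4%) and positive in 4 (12.5%), with a median of -0.37 (-0.23 under total counts). Of 18 progestin and glucocorticoid targets it was called negative in 9 (50%) and positive in 2 (11.1%), with a median of -0.43 (-0.28 under total counts). The shares over all genes were 14.3% negative and 11.8% positive, so the positive calls of both lists lay near that share. Against a fold of 1.5 the negative calls were 11 and 5. Of the 10 luminal markers, whose sums were lower in both perturbed groups, 5 were called negative and none positive, and their part in the result was not tested. ESR1 (chr6:151977826-152450754), the estrogen receptor, had 67.2 and 74.3 CPM in siPADI2 libraries against 211 and 212 in siCtrl libraries, and 82.4 and 86.9 CPM in R1810A libraries against 176 and 194 in WT libraries. Both falls were called and the difference was -0.45 ± 0.10 (adjusted p = 0.0042). PGR (chr11:100900355-101001255), the progesterone receptor, had 95.1 and 114 CPM in siPADI2 libraries against 325 and 332 in siCtrl libraries, and 182 and 182 CPM in R1810A libraries against 216 and 248 in WT libraries. The groups did not overlap, and PGR fell more in siPADI2 (-1.65 ± 0.09) than in R1810A (-0.35 ± 0.09), a difference of -1.30 ± 0.12 (adjusted p = 8.8e-06).

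Hormone and nuclear receptors as a list, which includes ESR1 and PGR, had 10 called positive (40%) and 5 negative (20%) of 25 tested. Beside these stand 11.8% and 14.3% of all genes. The list median was 0.23 (0.37 under total counts). Against a fold of 1.5 the positive and negative calls became 0 and 3. RARB (chr3:25215823-25639423), a retinoic acid receptor, rose in both with 15.3 and 11.9 CPM in siPADI2 libraries against 1.1 and 1.63 in siCtrl libraries, and 8.23 and 8.64 CPM in R1810A libraries against 1.89 and 1.77 in WT libraries (difference 1.04 ± 0.23, adjusted p = 0.0049). NR3C1, the glucocorticoid receptor, was of opposite response with 22.8 and 24.4 CPM in siPADI2 libraries against 19.6 and 19.2 in siCtrl libraries, and 24.4 and 25.6 CPM in R1810A libraries against 30.6 and 33.5 in WT libraries.

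Among estrogen-induced genes AGR2 (chr7:16831435-16873057), a disulfide isomerase of secretory epithelia, was of opposite response with 749 and 723 CPM in siPADI2 libraries against 1187 and 1329 in siCtrl libraries, and 1116 and 1090.0 CPM in R1810A libraries against 688 and 680.5 in WT libraries (difference -1.46 ± 0.11, adjusted p = 5e-07). SERPINA1 (chr14:94843084-94857030), alpha-1-antitrypsin, fell unequally, with 382 and 365 CPM in siPADI2 libraries against 1244 and 1331 in siCtrl libraries, and 671 and 712 CPM in R1810A libraries against 832 and 907 in WT libraries. GREB1 and TFF3, 2 further estrogen targets, had no called difference (adjusted p = 0.746 and 0.648). The progestin targets STAT5A (chr17:40439565-40463961) and TSC22D3 (chrX:106956451-107020572) had differences of -1.18 ± 0.15 and -1.03 ± 0.09. STAT5A had 4.39 and 4.67 CPM in siPADI2 libraries against 11.2 and 10.5 in siCtrl libraries, and 2.82 and 2.93 CPM in R1810A libraries against 3.1 and 2.96 in WT libraries, so siCtrl was highest. PDK4 (chr7:95212811-95225803), a kinase that restrains pyruvate dehydrogenase, answered R1810A alone, with 3.74 and 3.65 CPM in siPADI2 libraries against 2.96 and 3.58 in siCtrl libraries, and 5.3 and 5.68 CPM in R1810A libraries against 2.04 and 1.9 in WT libraries.

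**Figure D4:**
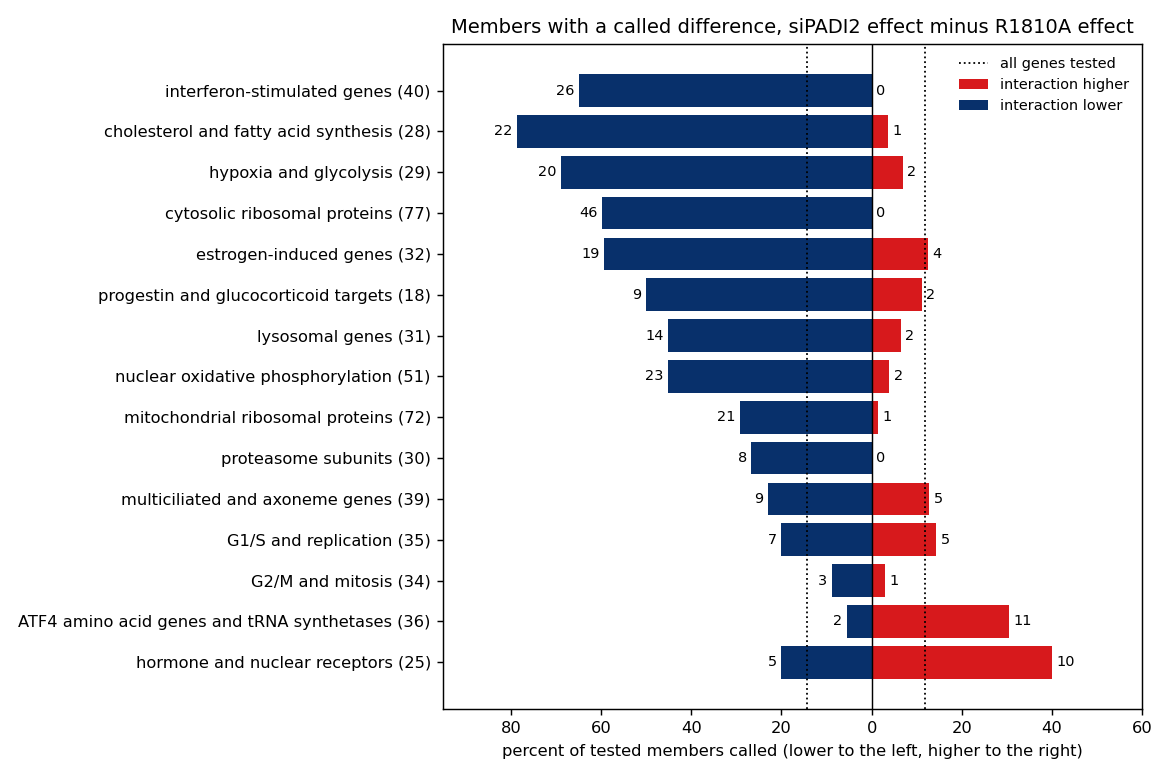
Bars give the percent of tested members of each list (number in brackets) whose difference of effects was called positive (red, right) or negative (dark blue, left), with the number of genes at each bar's end. Dotted lines mark 11.8% and 14.3%, the shares over all genes tested. Interferon, sterol, hypoxia, ribosomal protein and estrogen-induced lists reach past 59% on the left. The G1/S and replication bars pass both dotted lines (14.3% positive and 20% negative). The G2/M and mitosis bars stay short of both (2.94% and 8.82%).

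Most cell cycle genes fell under both perturbations, 28 of 35 in siPADI2 and 33 in R1810A for G1/S and replication, and 30 of 34 in each for G2/M and mitosis. Of all genes 25.9% fell in siPADI2 and 20.1% in R1810A. Of 35 genes of G1/S and replication the difference was called positive in 5 and negative in 7 (median -0.01), and of 34 genes of G2/M and mitosis in 1 and 3 (median -0.07). The shares over all genes were 11.8% positive and 14.3% negative. Under total counts the balance reversed in both lists, with 9 positive and 3 negative (median 0.14) and 7 positive and 1 negative (median 0.07). RRM2 (chr2:10262455-10271545), a ribonucleotide reductase subunit, fell more in siPADI2, with 13.4 and 12.9 CPM in siPADI2 libraries against 60.2 and 63.6 in siCtrl libraries, and 38.0 and 40.7 CPM in R1810A libraries against 92.8 and 95.7 in WT libraries (difference -0.97 ± 0.09, adjusted p = 5e-06). Of 11 D-type cyclins, their kinases and CDK inhibitors 4 were called negative and 1 positive (median -0.10, or 0.05 under total counts). CCND1 (chr11:69455855-69469242), cyclin D1, had 21.5 and 22.6 CPM in siPADI2 libraries against 131 and 122 in siCtrl libraries, and 30.9 and 31.4 CPM in R1810A libraries against 89.9 and 94.2 in WT libraries (effects -2.52 ± 0.07 and -1.56 ± 0.07, difference -0.96 ± 0.09, adjusted p = 4.7e-06). CDKN1A (chr6:36644305-36655116), the CDK inhibitor p21, had 114 and 103 CPM in siPADI2 libraries against 320.1 and 305 in siCtrl libraries, and 67.3 and 72.0 CPM in R1810A libraries against 80.1 and 87.3 in WT libraries (difference -1.26 ± 0.10). CDK6 (chr7:92234235-92465908) went the other way, with 34.0 and 34.9 CPM in siPADI2 libraries against 6.54 and 5.89 in siCtrl libraries, and 20.0 and 19.1 CPM in R1810A libraries against 6.87 and 7.93 in WT libraries (difference 1.08 ± 0.13, adjusted p = 3.1e-05). MYC fell in both (effects -1.26 and -1.45) with no called difference (adjusted p = 0.38).

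Genes of the ATF4 amino acid response and the tRNA synthetases leaned the other way. The difference was called positive in 11 of 36 members (30.6%) and negative in 2, beside 11.8% and 14.3% of all genes. The median was 0.08 (0.22 under total counts, with 17 and 0 called). Against a fold of 1.5 the positive calls were 3. SLC7A11 (chr4:139085251-139163503), the cystine transporter, had 59.4 and 54.9 CPM in siPADI2 libraries against 18.4 and 19 in siCtrl libraries, and 11.4 and 12.4 CPM in R1810A libraries against 10.7 and 11.8 in WT libraries. It rose in siPADI2 (1.61 ± 0.08) and not detectably in R1810A (0.08 ± 0.08), a difference of 1.53 ± 0.11 (adjusted p = 5.5e-07). TRIB3 (chr20:361261-378203), a pseudokinase, also rose in siPADI2 alone. STC2 (chr5:172741716-172756506), a secreted glycoprotein hormone that is also estrogen-induced, fell in both and more in R1810A, with 98.4 and 94.5 CPM in siPADI2 libraries against 238 and 218 in siCtrl libraries, and 26.6 and 28.2 CPM in R1810A libraries against 128 and 136 in WT libraries (difference 1.03 ± 0.10, adjusted p = 3.6e-06). PSAT1 (chr9:80912059-80945009), of serine synthesis, did likewise (effects -0.74 and -1.60). AARS1, MTHFD2 and SESN2 were raised by siPADI2 and lowered by R1810A.

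The largest positive differences came from genes of several classes. NPR3 (chr5:32689176-32791819), a clearance receptor of natriuretic peptides, had the largest positive difference among genes of at least 5 CPM in some group. It had 1.75 and 2.48 CPM in siPADI2 libraries against 0.454 and 0.36 in siCtrl libraries, and 4.05 and 3.88 CPM in R1810A libraries against 5.03 and 5.56 in WT libraries (difference 2.86 ± 0.26, adjusted p = 3.2e-06). It rose in siPADI2 and fell in R1810A (-0.42 ± 0.15). EPHA4 (chr2:222282747-222438922), an ephrin receptor, had 6.57 and 6.18 CPM in siPADI2 libraries against 0.334 and 0.352 in siCtrl libraries, and 9.64 and 9.61 CPM in R1810A libraries against 3.45 and 3.63 in WT libraries. It rose in both, by 4.20 ± 0.15 and 1.44 ± 0.10. CYP1B1 (chr2:38294116-38337044), a cytochrome P450 that hydroxylates estradiol, had 392 and 474 CPM in siPADI2 libraries against 50.2 and 56.1 in siCtrl libraries, and 168 and 170.3 CPM in R1810A libraries against 90.6 and 94.7 in WT libraries (difference 2.15 ± 0.12, adjusted p = 1.3e-07). KRT4 (chr12:53200333-53208335), a keratin, ZNF702P (chr19:53471504-53541151), a zinc finger pseudogene, and CDK14 (chr7:90095738-90839905), a cyclin-dependent kinase, each rose in siPADI2 alone. Their differences were 2.53 ± 0.25, 2.32 ± 0.13 and 2.24 ± 0.17, all above that of CYP1B1.

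EPB41L3 (chr18:5392383-5630699), a membrane-cytoskeleton linker, rose mainly in R1810A. It had 20.4 and 20.2 CPM in siPADI2 libraries against 15.3 and 16.5 in siCtrl libraries, and 18.1 and 18.2 CPM in R1810A libraries against 3.67 and 3.33 in WT libraries, so the WT libraries alone were low (difference -2.03 ± 0.12, adjusted p = 7.5e-08). PPP1R32 (chr11:61248592-61258403), a protein phosphatase regulatory subunit, had 1.92 and 2.25 CPM in siPADI2 libraries against 1.46 and 1.47 in siCtrl libraries, and 17.9 and 16.8 CPM in R1810A libraries against 3.56 and 2.83 in WT libraries, with only R1810A high. Genes of motile cilia, 39 tested, rose in both (31 in siPADI2 and 34 in R1810A), beside 27.4% and 23.3% of all genes. The difference was called positive in 5 and negative in 9 (median -0.13), beside 11.8% and 14.3% of all genes. Under total counts it was called positive in 9 and negative in 8 (median 0.02). FOXJ1 (chr17:74132414-74137380), the master regulator of motile cilia, rose more in siPADI2 (effects 3.57 ± 0.13 and 2.27 ± 0.11). CFAP45 (chr1:159842154-159869953) and ZMYND10 (chr3:50378541-50384283), an axonemal protein and a dynein arm assembly factor, rose more in R1810A (differences -1.37 ± 0.13 and -1.29 ± 0.12). CFAP45 had 18.1 and 15.0 CPM in siPADI2 libraries against 8.9 and 9.53 in siCtrl libraries, and 42.2 and 45.0 CPM in R1810A libraries against 9.37 and 9.47 in WT libraries.

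Among unequal falls, FMOD (chr1:203309756-203320617), the collagen-binding proteoglycan fibromodulin, had the most negative difference of all genes considered for naming. It had 0.518 and 0.469 CPM in siPADI2 libraries against 27.0 and 25.7 in siCtrl libraries, and 3.08 and 3.26 CPM in R1810A libraries against 12.5 and 13.7 in WT libraries (effects -5.74 ± 0.12 and -2.04 ± 0.10, difference -3.69 ± 0.15, adjusted p = 3.7e-09). RIPOR3 (chr20:49202645-49308065) had 2.26 and 2.37 CPM in siPADI2 libraries against 61.3 and 55.5 in siCtrl libraries, and 5.59 and 3.69 CPM in R1810A libraries against 12.8 and 8.64 in WT libraries, with a wide spread in both RNAP2 groups. SRARP (chr1:16330731-16335302), a coregulator of steroid receptors, had 2.41 and 1.78 CPM in siPADI2 libraries against 102 and 102 in siCtrl libraries, and 6.23 and 7.25 CPM in R1810A libraries against 36.6 and 37.1 in WT libraries (difference -3.16 ± 0.16). TGM3 (chr20:2276647-2321724), an epidermal transglutaminase, fell in siPADI2 (-2.52 ± 0.14) and rose in R1810A (0.53 ± 0.13). CLDN8 (chr21:31586324-31588391), a tight junction claudin, fell more in R1810A, with 1.67 and 1.36 CPM in siPADI2 libraries against 2.91 and 3.08 in siCtrl libraries, and 3.79 and 3.29 CPM in R1810A libraries against 16.9 and 17.0 in WT libraries (difference 1.27 ± 0.17, adjusted p = 9.8e-05).

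**Figure D5:**
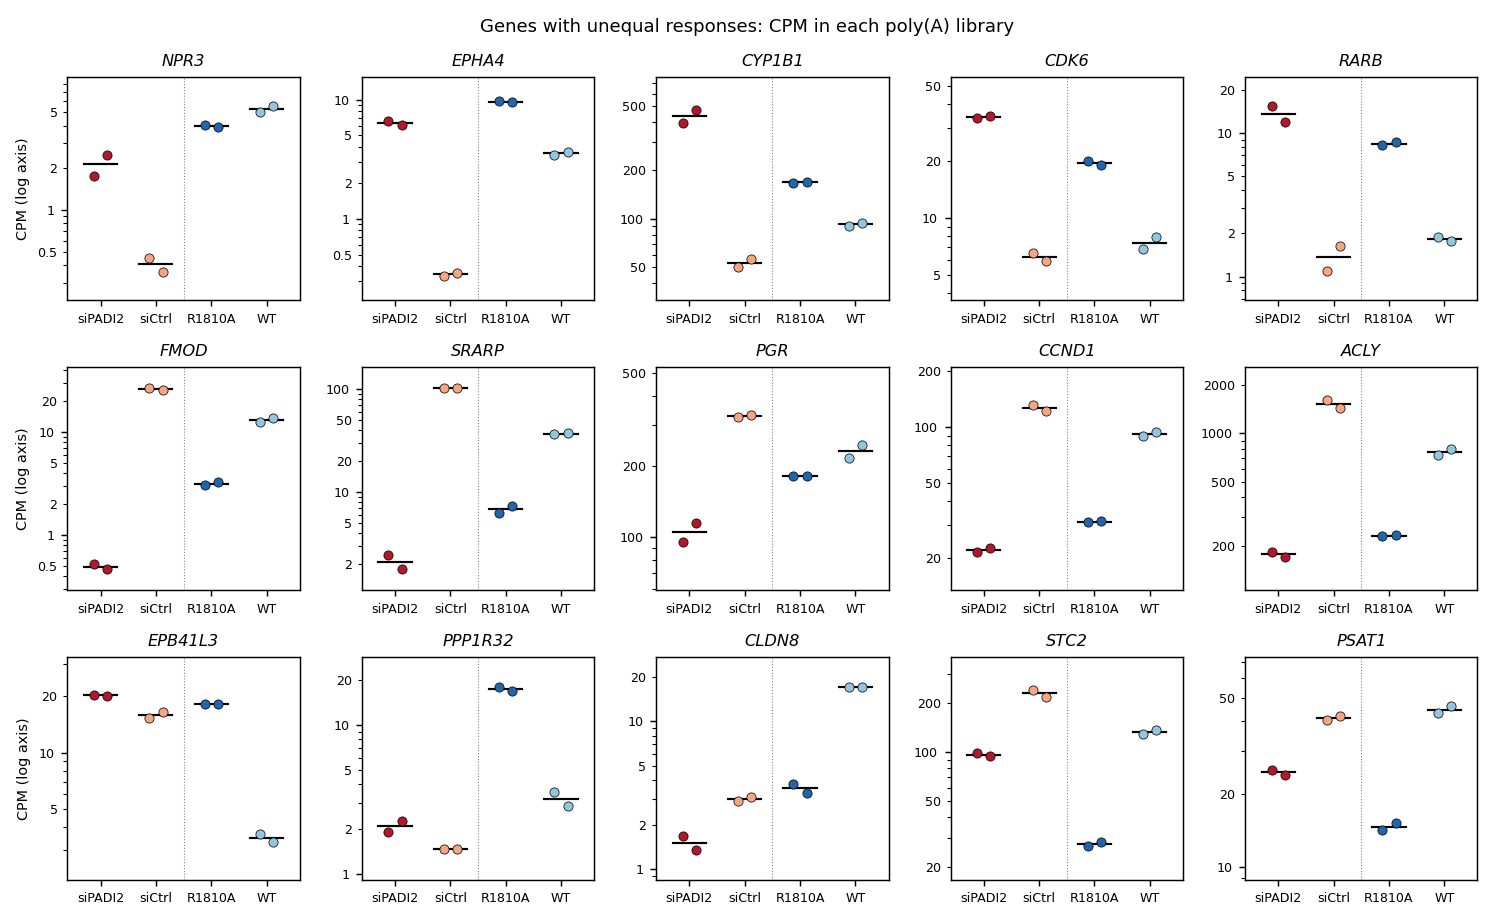
CPM on a log axis in each of the 8 poly(A) libraries for 15 genes of unequal response (NPR3 of opposite response) (points, single libraries; bars, group means). The genes of the second row, FMOD, SRARP, PGR, CCND1 and ACLY, are highest in siCtrl and lowest in siPADI2. EPB41L3 is low in WT alone and PPP1R32 high in R1810A alone.

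Genes of the EGF and IGF receptor pathway had 3 positive and 4 negative calls among 23 tested (median -0.004, or 0.14 under total counts). These calls, 13.0% and 17.4%, lay near the 11.8% and 14.3% of all genes. Genes of the BMP and TGF-beta pathway had 5 and 9 among 27, or 18.5% and 33.3% (median -0.02, or 0.12 under total counts). IGFBP5 (chr2:217536828-217560248), an IGF-binding protein, had 244 and 232 CPM in siPADI2 libraries against 1962 and 1806 in siCtrl libraries, and 794 and 850.3 CPM in R1810A libraries against 3231 and 3559 in WT libraries (difference -0.94 ± 0.12, adjusted p = 4.9e-05). EGFR (chr7:55086714-55324313), the EGF receptor, rose in siPADI2 alone, with 35.4 and 35.8 CPM in siPADI2 libraries against 21.4 and 20.6 in siCtrl libraries, and 42.9 and 44.0 CPM in R1810A libraries against 44.8 and 51.0 in WT libraries. BMP4 (chr14:54416454-54425479), a bone morphogenetic protein, was of opposite response with 24.6 and 25.7 CPM in siPADI2 libraries against 46.6 and 45.6 in siCtrl libraries, and 19.2 and 19.4 CPM in R1810A libraries against 14.5 and 14.8 in WT libraries (difference -1.27 ± 0.10). BMP7 (chr20:55743804-55841685), of the same family, rose in both and more in siPADI2 (difference 1.74 ± 0.35, adjusted p = 0.0076). ID4, an inhibitor of helix-loop-helix factors, was raised by siPADI2 and lowered by R1810A, with 3.29 and 2.96 CPM in siPADI2 libraries against 1.15 and 1.54 in siCtrl libraries, and 3.11 and 2.8 CPM in R1810A libraries against 3.96 and 4.16 in WT libraries. The feedback phosphatases of the MAP kinase pathway DUSP6 (chr12:89741009-89747048) and DUSP4 (chr8:29190581-29208185) fell more in siPADI2, with differences of -1.59 ± 0.22 and -1.43 ± 0.13.

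PRMT genes, whose enzymes methylate arginine and so act on the same residue type as PADI2, showed 3 called differences among 8 tested, beside 26.1% of all genes (median 0.04, or 0.18 under total counts). PRMT6 (chr1:107599267-107601916) had 51.7 and 49.6 CPM in siPADI2 libraries against 19.6 and 20.8 in siCtrl libraries, and 38.9 and 40.2 CPM in R1810A libraries against 37.6 and 41.3 in WT libraries. It rose in siPADI2 alone (difference 1.32 ± 0.10, adjusted p = 7.1e-07). CARM1 (chr19:10982189-11033453), also called PRMT4, was of opposite response by small amounts, with 59.9 and 57.5 CPM in siPADI2 libraries against 67.6 and 65.6 in siCtrl libraries, and 50.8 and 50.4 CPM in R1810A libraries against 44.6 and 45.0 in WT libraries (difference -0.36 ± 0.09, adjusted p = 0.0074). PRMT7 (chr16:68344877-68392466) fell in siPADI2 alone. PADI3, the other PADI gene tested, fell in both (effects -1.23 ± 0.08 and -1.25 ± 0.07), with a difference of 0.01 ± 0.11 (adjusted p = 0.94). Among 12 RNAP2 subunits the difference was called positive in 2 (16.7%) and negative in 3 (25%), beside 11.8% and 14.3% of all genes. It was negative in 9 (median -0.19, or -0.05 under total counts), and 1 subunit was of opposite response. Against most of its list, POLR2D (chr2:128603840-128615731) was raised by siPADI2 and lowered by R1810A. It had 23.4 and 24.4 CPM in siPADI2 libraries against 18.3 and 17.5 in siCtrl libraries, and 25.6 and 25.7 CPM in R1810A libraries against 33.3 and 33.4 in WT libraries.

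Chromatin-associated RNA, from siPADI2 libraries of 2798723 and 2720080 counted fragments and deeper siCtrl libraries of 7040541 and 6667627, measured the knockdown effect in a separate fraction. Of 33879 genes tested there, 10962 (32.4%) were called, 12.2% higher and 20.1% lower. Among the 18287 genes also tested in poly(A) RNA, 23.1% fell and 8.76% rose on chromatin. The genes of opposite response lay near these shares: of the 323 tested that siPADI2 lowered in poly(A) RNA, 61 fell and 30 rose on chromatin, and of the 196 that siPADI2 raised, 42 fell and 22 rose. Genes that fell in both perturbations unequally fell on chromatin in 334 of 857 and rose in 21, and cytosolic ribosomal protein genes fell in 40 of 77 and rose in none. Of 28 cholesterol and fatty acid genes 12 fell and none rose, and of 40 interferon-stimulated genes 9 fell and 7 rose. ACLY fell on chromatin (-1.66 log2, adjusted p = 8.1e-09 by edgeR), as did LDHA (-0.91, adjusted p = 0.00099). For CALCR, OAS1 and MSMO1 the chromatin changes were 0.47, 0.31 and -0.30 and not called (adjusted p = 0.25, 0.33 and 0.29). CCL28 and SERHL2, lowered by siPADI2 in poly(A) RNA, were higher on chromatin (0.63 and 0.82, adjusted p = 0.012 and 0.0048), and UPK3B and CBS, raised in poly(A) RNA, were lower on chromatin (-1.02 and -1.37, adjusted p = 3.5e-05 and 1e-08). AMOTL1, also raised in poly(A) RNA, was lower on chromatin too (-0.51, adjusted p = 0.0486). TGM3 instead was lower in both fractions (-1.43 on chromatin, adjusted p = 0.00059). The chromatin count depended on single libraries, with 4846 genes called without the siCtrl library numbered 5 and 6012 without the second siPADI2 library.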

How the data were processed

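Each library has 1 deposited table of raw counts, in which a read pair is counted once for its gene. Per the file headers, the authors counted alignments with featureCounts 1.5.1 (poly(A) RNA) or 1.4.6-p2 (chromatin RNA), as read pairs, with strand option 2, on GENCODE 19 genes of hg19. Trimmomatic and STAR are named in the submitters' processing notes. The commands set no option for multi-mapping reads, so genes with near-identical copies are undercounted. Poly(A) libraries were made with TruSeq Stranded mRNA, per the labels' protocols.

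Each table lists 57820 genes. Symbols matched for 51996 by gene identifier. The 8 poly(A) libraries were fitted together in edgeR 4.0.16 (R 4.3.3) with TMM factors, its default filter on low counts, robust quasi-likelihood and 1 mean per group, and the difference of effects was a contrast of the 4 means. Threshold: Benjamini-Hochberg adjusted p below 0.05 over all genes tested. SE is that of the log2 value. The chromatin libraries had their own fit. CPM in the text is the count over the library total scaled by TMM. The code was tested on simulated data, in which the false share among calls was above the nominal threshold, so adjusted p-values near the threshold may be too small with 2 libraries per group.

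Genes were named by rule: among called genes with a mean of at least 5 CPM in 1 group, the 6 largest differences in each direction, the 5 genes of each opposite class with the largest smaller effect, the 2 largest of each unequal class and sign, up to 4 per list, the members of short lists, and PADI2, POLR2A, CCND1, MYC, ESR1 and PGR. ISG15, IFI27, IDI1, SCD, FDPS, PMVK, GAPDH, NR3C1, ID4 and other genes beyond the rule were chosen after their values were seen. The members and lists were chosen with earlier results of these data known. Alternatives were total counts or DESeq2 size factors, no filter, DESeq2 1.42.0, limma 3.58.1 voom, a replicate block, thinning to the smallest library, a test against a fold of 1.5, and leaving out each library. Counts limit precision most for genes below 1 CPM and in the chromatin libraries. Some genes that the rule names are not reported here.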

Additional observations from a re-analysis of the deposited data

How the results depend on the processing

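Values here are numbers of genes, with the value of the report first. The difference of effects was called in 5196 genes, and in 918 when tested against a fold of 1.5, while the other alternatives stayed within 1.5 times. Positive calls (2343) became 3870 under total counts, 3684 under the replicate block and 326 against a fold of 1.5, and negative calls (2853) became 1822 under total counts and 592 against that fold. Leaving out a library gave 3795 to 5005 calls, 1791 to 2320 positive and 1940 to 2816 negative. The siPADI2 effect (10604) and the R1810A effect (8632) became 3497 and 1993 against a fold of 1.5, and ranged from 8838 to 10802 and from 6485 to 8842 without a library.

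Among classes, genes raised by siPADI2 and lowered by R1810A (197) became 423 under the replicate block and 2 against the fold of 1.5, and 105 to 195 without a library, with 105 reached without the second WT library. Genes of the reverse class (327) became 213 under total counts and 217 with no filter, where the first class held 283 and 286, and 592 under the replicate block and 16 against the fold, and 183 to 333 without a library (183 without the second R1810A library, 194 without the first WT library). Genes higher in both (816) became 1231 under total counts, 1485 under the block and 31 against the fold, and 483 to 761 without a library (483 and 533 without a WT library, 525 without the second R1810A library). Genes lower in both (863) became 1388 under the block and 89 against the fold, and 568 to 827 without a library (568 without the first WT library). The siPADI2 effect alone (2082) became 540 against the fold and 1560 to 2289 without a library. The R1810A effect alone (822) became 135 against the fold and 532 to 901 without a library (532 without the first WT library). Neither effect called (89) became 152 with no filter and 45 to 124 without a library (45 without the second siCtrl library, 57 without the second siPADI2 library). Chromatin calls (10962) became 3992 by DESeq2 and 4846 to 7988 without a library. The cause of these changes was not tested.

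Under the replicate block 7764 genes were called, and 5194 of the 5196 genes stayed called with the same sign. The replicate differences correlated by 0.0906 between siPADI2 and siCtrl and by 0.385 between R1810A and WT, with 2 pairs each and no label that says a number marks a shared batch, so the numbers were not taken as pairs. POLR2A, uncalled in every setting, changed sign to 0.12 under total counts, 0.0618 with no filter, and 0.12, 0.02 and 0.009 without the first siCtrl, first WT and second R1810A library, with a range of -0.16 to 0.12 over the 8 fits without a library. Single genes were counted this way for 49 genes, which do not include every gene named here. Over these, 743 of the alternative values kept direction and side of the threshold, 35 lost the call, 1 gained it and 5 changed sign, all 5 of POLR2A.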

Other observations

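Zinc finger genes, many of which encode KRAB repressors of transposable elements, were grouped by name after their values were seen. Of 540 tested genes whose symbol starts with ZNF and a digit, the difference of effects was called positive in 197 (36.5%) and negative in 15 (2.78%), with a median of 0.32, against 11.8% and 14.3% of all genes. On chromosome 19, where many stand in clusters, 102 of 269 were called positive and 5 negative, and on other chromosomes 95 of 271 and 10. On chromosome 19 siPADI2 raised 120 and lowered 27 of the 269, beside 27.4% and 25.9% of all genes. R1810A raised 18 and lowered 58 of them, beside 23.3% and 20.1% of all genes. Under total counts 273 of the 540 were called positive and 11 negative, and against a fold of 1.5 these were 52 and 4. The siCtrl group had the lowest mean of the 4 groups in 292 of the 540, beside 5937 of all 19884 genes tested.

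ZNF681 had 10.1 and 10.7 CPM in siPADI2 libraries against 3.34 and 2.87 in siCtrl libraries, and 10.5 and 9.91 CPM in R1810A libraries against 11.9 and 11.9 in WT libraries, so siCtrl alone was low. ZNF765 had 12.0 and 13.2 CPM in siPADI2 libraries against 4.44 and 5.35 in siCtrl libraries, and 11.4 and 12.9 CPM in R1810A libraries against 15.5 and 15.7 in WT libraries, and ZNF616 had a difference of 1.64 ± 0.15. Both were raised by siPADI2 and lowered by R1810A. ZNF812P, a pseudogene, ran against the group with 8.56 and 5.49 CPM in siPADI2 libraries against 54.9 and 57.3 in siCtrl libraries, and 13.4 and 13.1 CPM in R1810A libraries against 19.4 and 19.2 in WT libraries. Paralogous zinc finger genes share sequence, so single values are uncertain.

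Gene span moved with the share of calls. Genes were sorted by span into 10 bins of equal size. In bin 1, up to 1306 bases, 1.76% were called positive and 3.02% negative, and in bin 10, from 144004 bases, 18.1% and 14.2%. With TMM factors negative calls outnumbered positive ones in bins 1 to 8 and positive ones led in bins 9 and 10. Which sign leads depends on scaling, as 68% of all calls were positive under total counts instead of 45.1%. The bins were not counted under total counts. Expression level was not held constant.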
